A study of Mus musculus with 27 samples.

Results

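Edn1, Saa3, Ptx3 and Tnfsf15 were the 4 genes with the largest fitted rises from near silence when splenic B cells were given lipopolysaccharide (LPS). They were chosen by the largest rises of the 4 LPS libraries over the 4 unstimulated libraries of the first RNA-seq experiment, among 54532 genes counted, and held ranks 1, 3, 4 and 5 in that order. Rank 2, Cxcl10, was not in the choice, and it already had 16 to 84 counts in unstimulated B cells. Their rise with LPS in that experiment is therefore a description, and no test is given for it.

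In the first experiment, B cells of C57BL6 wild-type (WT) mice were cultured for 3 h in 5 groups of 4 libraries. One group was left unstimulated, a pair received LPS or IL-4+anti-CD40 with vehicle, and a further pair received either stimulus together with 1 μM disulfiram (DSF). The second experiment had 1 library for each of 7 conditions, the same 5 plus LPS with ibrutinib and IL-4+anti-CD40 with ibrutinib. LPS, a bacterial cell wall component, served as the T-cell-independent stimulus, IL-4+anti-CD40 as the T-cell-dependent stimulus, DSF is an aldehyde dehydrogenase inhibitor and ibrutinib inhibits Bruton's tyrosine kinase. The cells were isolated from spleen by negative selection, so any cell that the depletion missed was still in the culture. The study calls the 4 samples behind its RNA-seq gene levels biologically independent. Nothing in the labels says whether the 4 libraries of a group came from separate mice. The p-values then measure only the spread between these libraries, which may be technical.

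LPS is sensed by TLR4 with its partner MD-2 and the co-receptor CD14, and signals through MyD88 and TRIF to NF-κB, AP-1 and interferon regulatory factors. All 4 genes encode secreted or membrane-bound products of acute inflammation. Edn1 encodes the precursor of endothelin-1, a vasoconstrictor peptide best known from endothelial cells. Saa3 encodes an acute-phase serum amyloid A protein made outside the liver, mainly by macrophages and adipocytes. Ptx3 encodes the long pentraxin PTX3, a soluble pattern recognition molecule released by phagocytes, dendritic cells and endothelium. Tnfsf15 encodes TL1A, a TNF superfamily ligand for the death receptor DR3 (Tnfrsf25) on lymphocytes.

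The 4 genes lie on different chromosomes (mm10). Edn1 (ENSMUSG00000021367) lies on chromosome 13 from 42301476 to 42307990 on the plus strand, and an antisense gene, Gm47118, overlaps it with at most 4 counts in any library of the first experiment. Saa3 (ENSMUSG00000040026) lies on chromosome 7 from 46711998 to 46715700 on the minus strand. Its close relatives Saa1 and Saa2 had at most 4 counts in any library. Ptx3 (ENSMUSG00000027832) lies on chromosome 3 from 66219910 to 66225805 on the plus strand, inside Veph1 of the opposite strand, which had at most 2 counts. Tnfsf15 (ENSMUSG00000050395) lies on chromosome 4 from 63727084 to 63745113 on the minus strand. Saa3 and Tnfsf15 overlapped no annotated gene.

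The bases just upstream of the genes are shown because the 4 genes rose together with LPS. All 4 symbols matched the RefSeq table (GRCm38.p6), and each stretch ends before the start of the annotated transcript. Capitals mark matches, on either strand, to the interferon-stimulated response element (ISRE, GAAA, any 2 bases, GAAA) or the C/EBP motif (TTGCNNAA), and the regions are chr13:42301226-42301475 (plus strand), chr7:46715701-46715926 (minus), chr3:66219637-66219886 (plus) and chr4:63745114-63745309 (minus).
Edn1: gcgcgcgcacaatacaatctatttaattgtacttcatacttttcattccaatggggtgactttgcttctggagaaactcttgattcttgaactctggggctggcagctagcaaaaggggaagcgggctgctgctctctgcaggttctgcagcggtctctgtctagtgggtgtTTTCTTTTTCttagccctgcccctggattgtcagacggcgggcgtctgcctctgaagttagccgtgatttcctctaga
Saa3: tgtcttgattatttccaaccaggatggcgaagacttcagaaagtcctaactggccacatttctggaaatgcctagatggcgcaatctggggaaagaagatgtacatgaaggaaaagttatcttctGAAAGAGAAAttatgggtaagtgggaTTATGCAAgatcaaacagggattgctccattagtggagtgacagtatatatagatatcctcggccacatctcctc
Ptx3: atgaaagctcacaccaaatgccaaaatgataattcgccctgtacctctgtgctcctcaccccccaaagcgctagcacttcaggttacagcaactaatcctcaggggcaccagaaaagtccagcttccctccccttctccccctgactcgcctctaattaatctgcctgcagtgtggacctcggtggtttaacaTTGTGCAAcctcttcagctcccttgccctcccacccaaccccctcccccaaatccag
Tnfsf15: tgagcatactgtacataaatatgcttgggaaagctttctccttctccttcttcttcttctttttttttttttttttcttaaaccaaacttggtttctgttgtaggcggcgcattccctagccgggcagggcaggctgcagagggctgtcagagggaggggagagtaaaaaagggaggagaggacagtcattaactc

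In the 250 bases before the RefSeq start, Saa3 held an ISRE match at 125 to 116 bases and a C/EBP match at 99 to 92 bases before the start. Ptx3 held a C/EBP match at 57 to 50 bases, and Edn1 an ISRE match at 78 to 69 bases before the start. Of 32851 promoters of the same length, 2.98% held the ISRE letters and 9.56% the C/EBP letters. No match to the NF-κB consensus, the AP-1 motif (TGANTCA) or TATAAA was present in these 4 windows, and 3.9%, 6.75% and 12.4% of all promoters held one. No 2 of the matches overlapped.

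Library totals ran from 17804851 to 23632992 counts in the first experiment and from 16049295 to 24619776 in the second. The library numbers 1 and 2 stood apart from 3 and 4 in some groups, and no label names a batch. Among 14774 genes, 13.1% differed 2-fold or more between those pairs of libraries in unstimulated B cells, 4.1% with IL-4+anti-CD40 and between 1.19% and 1.66% in the other 3 groups. The 7 B cell markers were all detected in every group of the first experiment, and their sum was 6457 to 9720 CPM in unstimulated B cells, 4493 to 4613 with LPS and 2838 to 2904 with LPS and DSF. It was 4347 to 4814 with IL-4+anti-CD40 and 3143 to 3331 when DSF was added, so it was lower with DSF under both stimuli, and its part in the results was not tested. Of 10 monocyte or macrophage markers all 10 were detected in every group, and their sum ranged from 657 to 808 CPM in unstimulated B cells, 122 to 139 with LPS, 119 to 125 with LPS and DSF, 187 to 224 with IL-4+anti-CD40, and 193 to 274 when DSF was added to the latter. Lyz2 alone held 417 to 626 CPM of that sum in unstimulated B cells. The part of these cells in the levels of the 4 genes was not tested. Endothelial markers summed to 154 to 167 CPM with LPS and 83.1 to 96.0 with LPS and DSF, with Emcn at 0 in both, and those of fibroblasts to at most 2.70, with Pdgfra and Dcn at 0. In bulk RNA, fewer cells of a type and less RNA per cell cannot be told apart.

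In unstimulated B cells the 4 genes were at or near 0. Edn1 had 1, 1, 0 and 0 counts in the 4 libraries and Tnfsf15 had 2, 0, 0 and 0. Saa3 had 0, 0, 0 and 3 counts, and Ptx3 had none in any library. No unstimulated library thus held more than 3 counts of any of the 4 genes.

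With LPS, Edn1 rose to 485, 528, 503 and 405 counts, the highest of the 4 genes. Its level was 24.8 ± 1.77 CPM (counts scaled to the library size, TMM-normalized, SD, n = 4) and 10.9 FPKM, the deposited unit that divides by gene length. Saa3 rose to 196, 195, 201 and 179 counts, or 9.995 ± 0.916 CPM and 3.62 FPKM.
All 4 LPS libraries of both genes lay far above every unstimulated library, and LPS replicate 3 was the highest for both, at 27.4 CPM of Edn1 against 23.6 to 24.2 in the others. Tnfsf15 had 120, 145, 115 and 100 counts with LPS, which is 6.16 ± 0.32 CPM and 1.74 FPKM. Ptx3 had 24, 17, 41 and 25 counts, which is 1.41 ± 0.62 CPM and 0.498 FPKM. Ptx3 was thus the lowest of the 4 and, relative to its mean, the most variable between LPS libraries, at only 17 to 41 counts. Per length, the order with LPS was Edn1, Saa3, Tnfsf15, Ptx3.

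Summed over the 4 libraries, the ratio of LPS to unstimulated was 1241 for Edn1 (1921 against 2 counts, 95% exact counting interval 343 to 10255). The ratio was 332 for Saa3 (771 against 3 counts, 113 to 1614) and 310 for Tnfsf15 (480 against 2 counts, 85.4 to 2568). Ptx3, with no count in unstimulated B cells, was at least 11.2-fold higher against a floor of 3 counts per library. These intervals cover counting error only, and 29.6% of 14477 genes were called higher in this comparison, which chose the 4 genes. The fitted log2 fold change of the last gene inside the choice, Tnfsf15, was 7.86. The next genes outside it were Cxcl1, a neutrophil chemokine, at 7.16, and Ifnb1, the interferon-β gene, at 7.13.

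**Figure D1:**
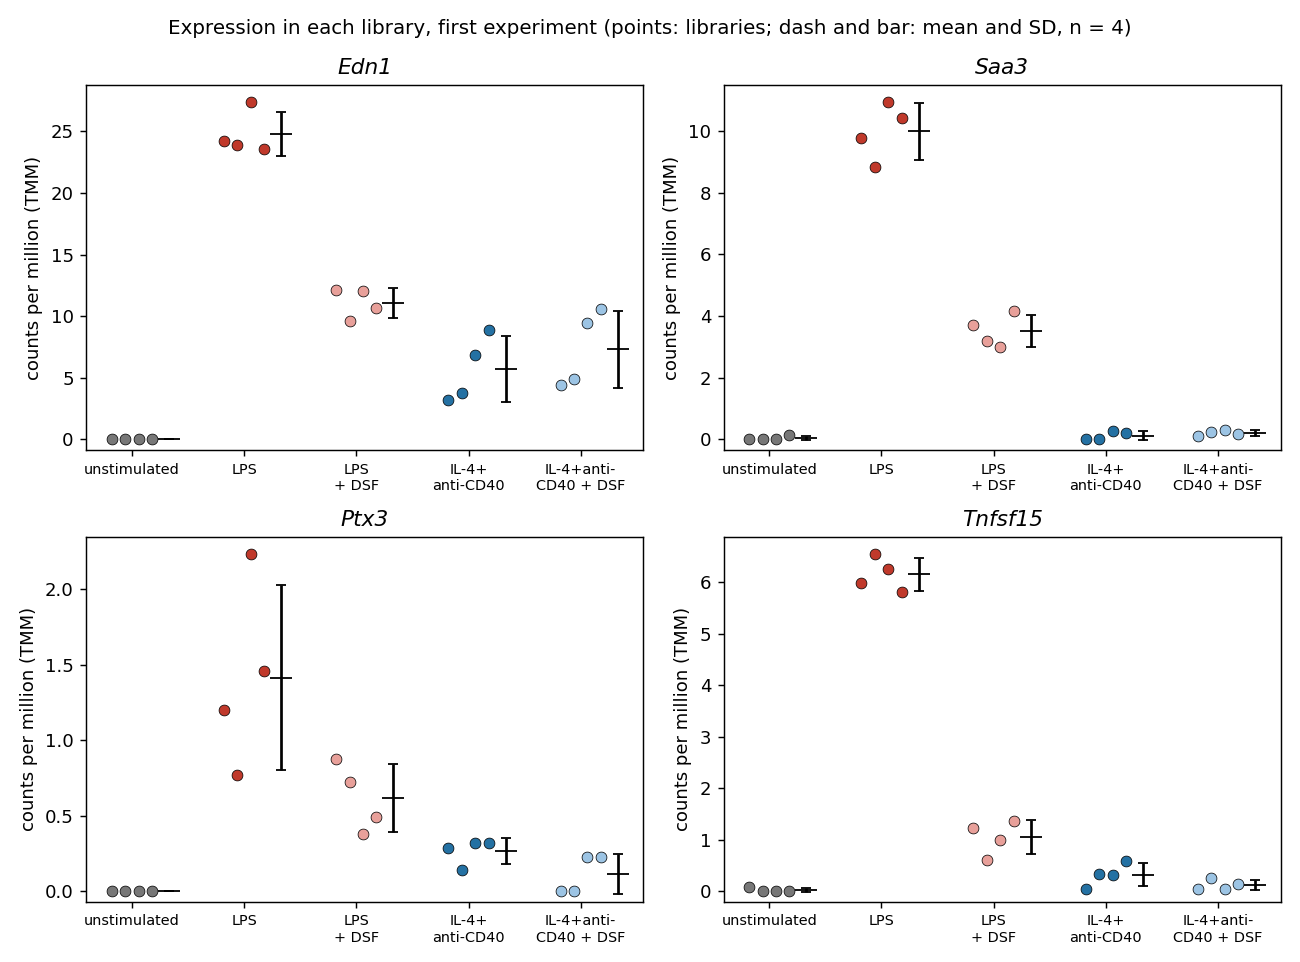
TMM-normalized CPM (y axes, linear, one scale per gene) of Edn1, Saa3, Ptx3 and Tnfsf15 in the 20 libraries of the first experiment, by group (x axes). Points are libraries and dashes with bars are means with SD (n = 4), and each gene is highest with LPS, with the LPS libraries of Edn1 between 23.6 and 27.4 and those with DSF between 9.59 and 12.2.

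DSF lowered all 4 genes in LPS-stimulated B cells. Edn1 had 209, 172, 192 and 194 counts with LPS and DSF, and its level of 11.1 ± 1.21 CPM was 44.8% of that with LPS. Saa3 had 64, 57, 48 and 76 counts, at 3.52 ± 0.53 CPM and 35.2% of LPS. Tnfsf15 had 21, 11, 16 and 25 counts, at 1.05 ± 0.33 CPM and 17.1% of LPS. For these 3 genes every DSF library lay below every LPS library, and the share of all genes so separated was not counted. Ptx3 had 15, 13, 6 and 9 counts, at 0.617 ± 0.224 CPM and 43.6% of LPS. The highest Ptx3 library with DSF, at 0.872 CPM, lay above the lowest with LPS, at 0.769.

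In edgeR's quasi-likelihood test over 14154 genes, all 4 fell with DSF, where 36% of all genes tested were lower and 35.1% higher. The log2 fold change was -2.43 for Tnfsf15 (SE 0.199, adjusted p = 5.62e-11), -1.38 for Saa3 (SE 0.133, adjusted p = 1.16e-09) and -1.04 for Edn1 (SE 0.0902, adjusted p = 1.57e-10). For Ptx3 it was -1.05 (SE 0.357, adjusted p = 0.0114). The LPS libraries of this comparison also chose the genes, so the fall is not independent of the choice. Ptx3 passed the filter on low counts only through those LPS libraries. The Ptx3 call was lost without LPS replicate 3 (log2 fold change -0.77, adjusted p = 0.0728) and in the libraries numbered 1 and 2 alone (-0.20, adjusted p = 0.738), against -1.97 (adjusted p = 0.000578) in those numbered 3 and 4. The other 3 genes kept their calls in both pairs of libraries.

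After DSF the 4 genes still stood above unstimulated B cells. The ratio of LPS with DSF to unstimulated was 555 for Edn1 (767 against 2 counts, counting interval 153 to 4591), 118 for Saa3 (245 against 3 counts, 40.0 to 577) and 52.8 for Tnfsf15 (73 against 2 counts, 14.1 to 444). These 3 genes passed the test (adjusted p = 1.56e-07, 1.52e-05 and 9.73e-05 in edgeR's quasi-likelihood test), where 34.3% of 14663 genes were higher. Ptx3 was at least 5.21-fold higher against the floor and did not pass the filter on low counts in that comparison. The unstimulated libraries of this comparison also entered the choice of the genes, and the 3 genes tested passed the filter only through the group with LPS and DSF.

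IL-4+anti-CD40 raised Edn1 only part of the way. Edn1 had 67, 80, 149 and 166 counts with IL-4+anti-CD40, at 5.68 ± 2.67 CPM, or 22.9% of its level with LPS. Every one of these libraries was above every unstimulated library, and the ratio was 281 (462 against 2 counts, counting interval 77.4 to 2328, adjusted p = 1.30e-05 in edgeR's quasi-likelihood test). The unstimulated libraries of this comparison also entered the choice of the genes. In that comparison 30.4% of 14433 genes were higher, and Edn1 was the 1 gene of the 4 that passed the filter on low counts. Edn1 passed it only through the group with IL-4+anti-CD40, so that a difference was already required for the test. Saa3 had 0, 0, 6 and 4 counts, Ptx3 had 6, 3, 7 and 6, and Tnfsf15 had 1, 7, 7 and 11. Their levels were 1.23%, 18.9% and 5.24% of those with LPS. With every gene that had any count kept in the fit, the adjusted p against unstimulated was 0.00233 for Ptx3, 0.0134 for Tnfsf15 and 0.359 for Saa3.

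All 4 genes were higher with LPS than with IL-4+anti-CD40, where 22.3% of 14078 genes were higher. The log2 fold change was 6.28 for Saa3 (SE 0.376, adjusted p = 9.09e-08) and 4.25 for Tnfsf15 (SE 0.307, adjusted p = 4.60e-07). It was 2.35 for Ptx3 (SE 0.405, adjusted p = 0.000637) and 2.12 for Edn1 (SE 0.245, adjusted p = 2.67e-05, edgeR's quasi-likelihood test). No LPS library of any of the 4 genes overlapped with IL-4+anti-CD40, and the share of all genes so separated was not counted. The LPS libraries of this comparison also chose the genes, and Saa3, Ptx3 and Tnfsf15 passed the filter on low counts only through them.

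No library that chose the genes enters the comparison of the stimuli in the presence of DSF. There Saa3 was higher with LPS by 4.03 (SE 0.297, adjusted p = 9.10e-09) and Tnfsf15 by 3.11 (SE 0.477, adjusted p = 5.38e-05) on the log2 scale, where 21.8% of 14352 genes were higher and 23.3% lower. In the 4 libraries that received IL-4+anti-CD40 plus DSF, Saa3 had 2, 5, 7 and 4 counts and Tnfsf15 had 1, 5, 1 and 3, below every library with LPS and DSF. Both genes thus passed the filter on low counts only through the group with LPS and DSF, where they are high, so that a difference was already required for the test. Edn1 had 88, 96, 208 and 235 counts, at 7.31 ± 3.14 CPM, and its libraries overlapped with those of LPS and DSF.
Its log2 fold change was 0.62 (SE 0.215, adjusted p = 0.0271, edgeR's quasi-likelihood test). The Edn1 call was lost without LPS+DSF replicate 1 or 3 or without IL-4+anti-CD40+DSF replicate 1 or 2, with adjusted p between 0.0692 and 0.0803, and the log2 fold change was 1.27 (adjusted p = 1.14e-05) in the libraries numbered 1 and 2 against 0.20 (adjusted p = 0.304) in those numbered 3 and 4. Ptx3 had 0, 0, 5 and 5 counts in these libraries and did not pass the filter. With any count kept, its log2 fold change was 2.34 (adjusted p = 0.000843).

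With IL-4+anti-CD40 as stimulus, no change of Edn1 with DSF passed the test. Its log2 fold change was 0.38 with a 95% interval of -0.39 to 1.16 (adjusted p = 0.368, edgeR's quasi-likelihood test), where 30.1% of 14275 genes were higher and 31.6% lower. The libraries numbered 3 and 4 held 2.25 times the Edn1 level of 1 and 2 with IL-4+anti-CD40 and 2.16 times with DSF added. Cd14, the LPS co-receptor gene, named here after its values were seen, had 78, 88, 163 and 249 counts with IL-4+anti-CD40 and 230, 307, 617 and 603 with DSF added, so it was split by number in the same way. Its part in the Edn1 levels was not tested. Within the libraries numbered 1 and 2 the log2 fold change of Edn1 was 0.41 (adjusted p = 0.102), and within those numbered 3 and 4 it was 0.37 (adjusted p = 0.0818). With the replicate number as a block in the fit, the Edn1 change passed the threshold, but same-numbered libraries were not shown to be paired. The other 3 genes were too low for the filter, with summed ratios of DSF to vehicle of 1.77 for Saa3 (counting interval 0.773 to 4.28), 0.446 for Ptx3 (0.189 to 0.982) and 0.378 for Tnfsf15 (0.162 to 0.809). With any count kept in the fit, their adjusted p-values were 0.504, 0.295 and 0.164.

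**Figure D2:**
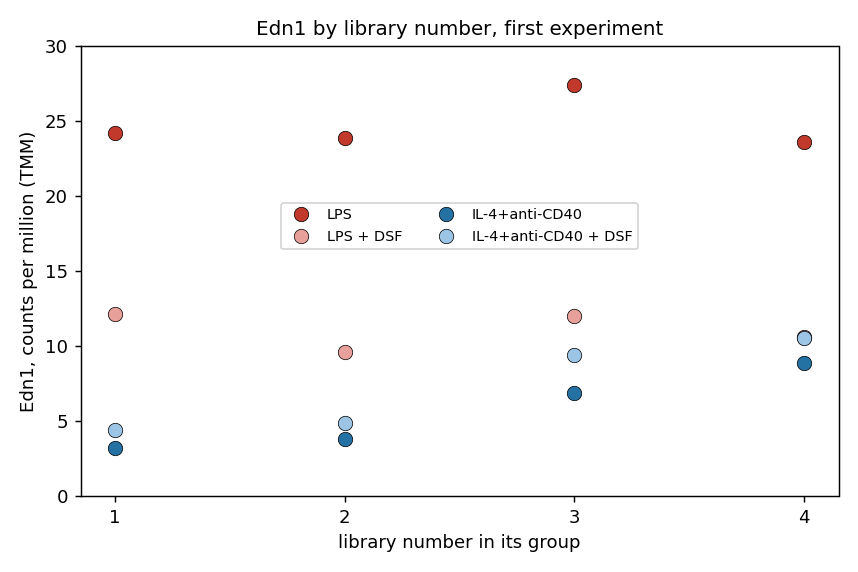
TMM-normalized CPM of Edn1 (y axis, linear) in each stimulated library of the first experiment, by its number in the group (x axis), with one color per group. With IL-4+anti-CD40, with or without DSF, the libraries numbered 3 and 4 lay above 1 and 2, at 6.85 and 8.89 against 3.18 and 3.81 without DSF, and no such split was present with LPS.

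The difference between the DSF effect in LPS and that in IL-4+anti-CD40 was itself tested over 15130 genes, of which 6.96% were called lower and 7.92% higher. The LPS libraries, whose high values chose the genes, enter this test, so a lower value here is not independent of the choice. For Edn1 it was -1.44 on the log2 scale (95% interval -2.20 to -0.68, adjusted p = 0.0106), and it was -1.44 and -1.43 in the libraries numbered 1 and 2 and those numbered 3 and 4. For Saa3 it was -2.18 (95% interval -3.61 to -0.75, adjusted p = 0.0366, edgeR's quasi-likelihood test). The Saa3 call rested on few IL-4+anti-CD40 counts. It was lost without LPS replicate 3 or 4, LPS+DSF replicate 2 or 3, IL-4+anti-CD40 replicate 1 or 2, or IL-4+anti-CD40+DSF replicate 2, 3 or 4, at adjusted p from 0.0514 to 0.121, and in the libraries numbered 3 and 4 alone (-1.47, adjusted p = 0.146). Tnfsf15 (-1.08, 95% interval -2.66 to 0.51, adjusted p = 0.380) and Ptx3 (0.07, -1.15 to 1.29, adjusted p = 0.953) did not pass the threshold, and their intervals are too wide to show that DSF acted alike on them under both stimuli.

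**Figure D3:**
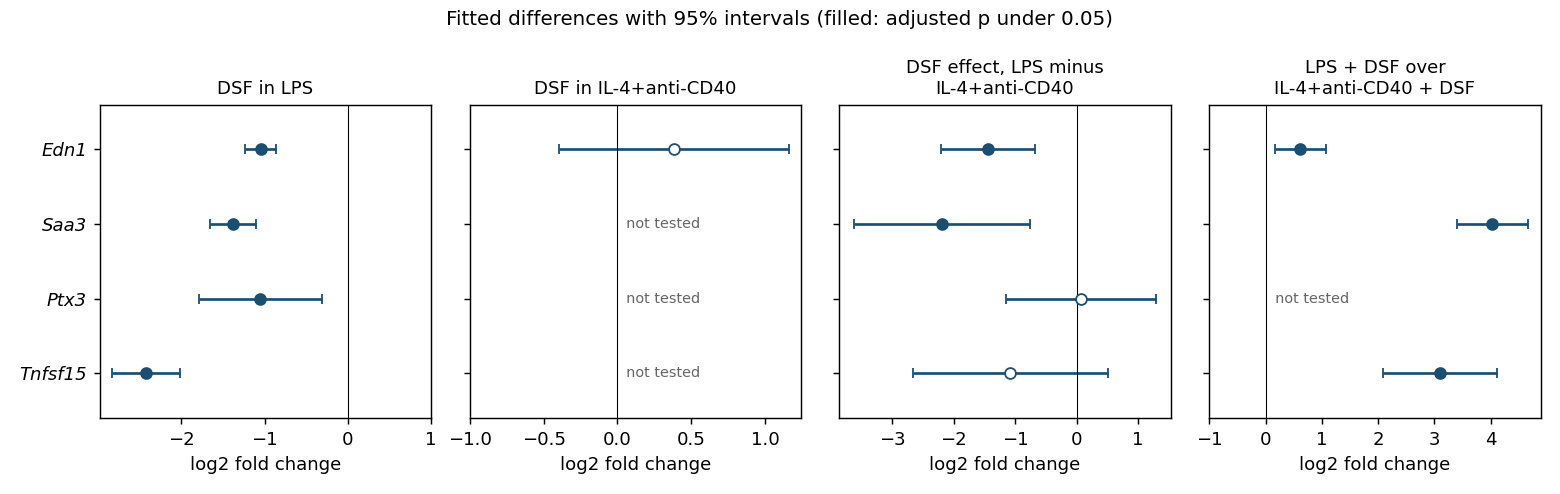
Fitted log2 fold changes (x axes) of the 4 genes (rows) in 4 comparisons of the first experiment (panels), with 95% intervals. Filled points have an adjusted p under 0.05, and all 4 genes lie below 0 for DSF in LPS, from -2.43 for Tnfsf15 to -1.04 for Edn1, while Edn1 lies at 0.38 for DSF in IL-4+anti-CD40.

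The endothelin system around Edn1 was mostly silent in these cells. Of 9 genes, 3 were tested for DSF in LPS, and Ednrb, the endothelin B receptor, rose by 2.53 (SE 0.197, adjusted p = 2.22e-11, edgeR) while Edn1 fell. Ednrb had 23, 17, 31 and 18 counts with LPS and 103, 102, 107 and 115 with DSF added. It also rose with DSF in IL-4+anti-CD40, by 3.27 (SE 0.434, adjusted p = 5.54e-05). In unstimulated B cells Ednrb had 44 and 49 counts in libraries 1 and 2 and 0 in 3 and 4, so that group was itself split. Ece1, which cleaves the endothelin precursor to its active form, had a log2 fold change of 0.00012 with DSF in LPS (adjusted p = 0.999). Edn2 had no count in any library, and Edn3 and the receptor gene Ednra had at most 3.

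Among 16 genes of serum amyloid A and the acute phase, 10 were tested for DSF in LPS, and 4 were higher and 6 lower, beside 35.1% higher and 36% lower among all genes. The list's median log2 fold change was -0.45, against 0.0019 over all genes. Besides Saa3, Hp, the haptoglobin gene, fell by 1.68 (SE 0.105, adjusted p = 3.14e-13), and Orm3, an orosomucoid gene, rose by 1.32 (SE 0.221, adjusted p = 9.35e-06, edgeR). In the presence of DSF, 9 of 11 tested were higher with LPS than with IL-4+anti-CD40 and 2 were lower, beside 21.8% and 23.3% of all genes. They included Hamp, the hepcidin gene, by 2.65 and Fpr2, a formyl peptide receptor that binds serum amyloid A, by 2.44, both higher with LPS. Saa3, chosen by its high LPS values, is itself counted among these 9 and among the 6 lower with DSF. Only the group with LPS and DSF brought it past the filter in the former count.

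Of 20 genes of pentraxins and humoral pattern recognition, 8 were tested for DSF in LPS, and 1 was higher and 5 were lower, with a median of -0.67, beside 35.1% and 36% of all genes. Ptx3, chosen by its high LPS values, is itself counted among the 5. Fcgr2b, the inhibitory IgG receptor of B cells, fell by 1.45 (SE 0.0474, adjusted p = 6.15e-19), and Nptxr, a neuronal pentraxin receptor, rose by 1.44 (SE 0.407, adjusted p = 0.0028, edgeR). With IL-4+anti-CD40, DSF raised Fcgr2b by 1.30 (adjusted p = 5.70e-05), and the difference between the stimuli was -2.76 (adjusted p = 8.14e-09). The short pentraxin genes Crp and Apcs had no count in any library.

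Of 18 TNF superfamily ligands, 11 were tested for DSF in LPS, and 2 were higher and 6 lower, with a median of -0.15, again beside 35.1% and 36% of all genes. Cd70, a costimulatory ligand of activated lymphocytes, fell by 2.67 (SE 0.545, adjusted p = 0.000117) and Tnfsf8, the CD30 ligand, by 1.14 (SE 0.220, adjusted p = 5.77e-05, edgeR), beside Tnfsf15. In the presence of DSF, 7 of 10 were higher with LPS than with IL-4+anti-CD40 and none was lower, beside 21.8% and 23.3% of all genes, including Tnfsf10, the TRAIL gene, at 4.07 and Tnf at 2.53. Tnfsf15, chosen by its high LPS values, is itself counted among these 7 and among the 6 lower with DSF. Only the group with LPS and DSF brought it past the filter in the former count. Tnfrsf25, the receptor of TL1A, was low, with 21, 22, 15 and 18 counts with LPS and 17, 20, 16 and 32 with DSF, and its log2 fold change was 0.43 (adjusted p = 0.182). Of the 9 genes of that receptor and its signalling, 6 were lower with DSF in LPS (36% of all genes) and 1 higher (35.1%), including Fadd, the death domain adaptor, at -1.39 and the ubiquitin ligase genes Birc3 at -0.86 and Birc2 at -0.59. For DSF in IL-4+anti-CD40, 6 were lower and 1 higher of 8 tested, beside 31.6% and 30.1% of all genes, with Fadd at -1.09, Birc3 at -1.07 and Birc2 at -0.86.

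The LPS receptor complex and its adaptors moved in both directions with DSF in LPS, with 8 higher and 5 lower of 15 tested, beside 35.1% and 36% of all genes, which also stand beside the next counts. Ly96, which encodes MD-2, rose by 2.08 (SE 0.114) and Irak2, a kinase below MyD88, by 1.82 (SE 0.0483), whereas Ly86, which encodes MD-1, fell by 0.92 (SE 0.0425). Of 23 transcription factors and NF-κB regulators known at LPS-induced genes, 11 were higher and 8 lower. Those with the largest changes were the stress- and AP-1-family genes Fosl1, higher by 3.03, Atf3 by 2.86 and Fosb by 2.55. Of 10 RNA decay regulators, 4 were higher and 2 lower, with Zfp36l1 lower by 1.18 and Zfp36, which encodes tristetraprolin, higher by 0.90. Scaling by total counts shifted the median of all genes to -0.21 in this comparison, which turned the medians of these 3 lists from 0.11, 0.07 and 0.08 to -0.10, -0.14 and -0.13, and the calls from 4966 higher and 5096 lower genes to 3473 and 6680. Edn1, Saa3, Ptx3 and Tnfsf15 stayed lower with DSF under that scaling, at -1.25, -1.59, -1.26 and -2.64.

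The rise of Edn1, Saa3 and Ptx3 with LPS was hardly present in the second experiment. Edn1 had 2 counts unstimulated and 8 with LPS, where 393 counts would have matched its lowest LPS library of the first experiment. Saa3 had 6 counts unstimulated and 1 with LPS, against 147 for the same match, and Ptx3 had none in any of the 7 libraries, against 12.8. These 3 genes were thus far below their first-experiment level, and no replicate of the second experiment exists.
Tnfsf15 rose from 9 to 28 counts with LPS, below the 97.0 that would have matched. The ratio of LPS to unstimulated was 3.70 for Tnfsf15 (counting interval 1.70 to 8.91), 4.75 for Edn1 (0.949 to 46.0) and 0.198 for Saa3 (0.00431 to 1.63). These intervals cover counting error only, and the spread between libraries was not measured there.

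Other genes that rose with LPS in the first experiment differed among themselves in the second. Nfkbiz, an NF-κB regulator named here after its values were seen, went from 1391 to 15699 counts, a ratio of 13.4 (12.7 to 14.2), against 19.0 in the first experiment. Cxcl10 had 1017 counts unstimulated and 3633 with LPS, a ratio of 4.25 (3.96 to 4.56), against 405 in the first experiment. Ifit3b, an interferon-stimulated gene also named after its values were seen, had 2813 counts unstimulated and 1117 with LPS, and Il1rn, which encodes the IL-1 receptor antagonist, had 88 and 73. Of the 50 largest LPS rises of the first experiment, 18 were 2-fold or more higher in the second, 5 were 2-fold or more lower and 27 lay between, with a median log2 ratio of 0.56. Over all 14275 genes of sufficient count, 8.73% were 2-fold or more higher and 9.79% lower. These 50 genes were ranked on the first experiment alone, and 12 of them had under 10 counts with LPS in the second, 4 of the 5 lower genes among them with 1 to 4 counts, whereas the genes behind the shares had a mean count of at least 10.

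**Figure D4:**
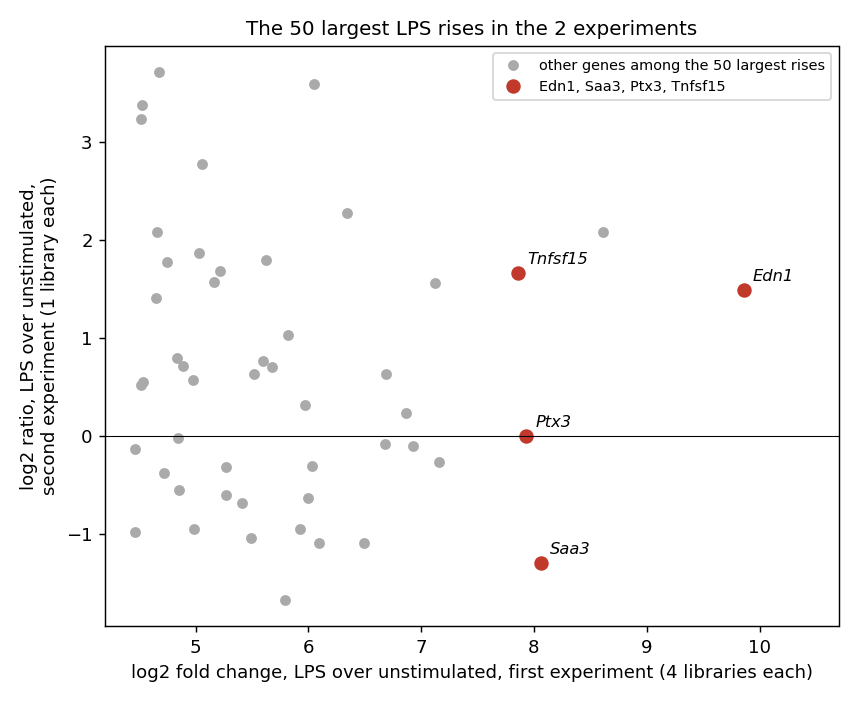
The 50 genes with the largest LPS rises of the first experiment, by their fitted log2 fold change there (x axis, 4 libraries per group) and their log2 ratio of LPS to unstimulated in the second experiment (y axis, 1 library each, prior count 2). Points are genes, and the 4 chosen genes (red) sit at 7.86 to 9.86 on the x axis but between -1.29 and 1.67 on the y axis.

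With LPS, the summed markers of macrophages, neutrophils and fibroblasts were also lower in the second experiment. Those of dendritic cells, T cells, B cells, plasma cells and erythroid cells or platelets were higher there with LPS. The 10 monocyte or macrophage markers summed to 35.1 CPM with LPS, against 122 to 139 in the first experiment, and to 53.1 in unstimulated B cells, against 657 to 808. Lyz2 had 136 counts with LPS there, against 1337 to 1678, or 7.77 CPM against 71.0 to 82.7. Csf1r, also in that sum, was at 1.54 CPM against 13.8 to 15.9, so most of the difference with LPS lay in Lyz2 and Csf1r. The 7 neutrophil markers summed to 0.742 CPM, against 17.7 to 19.8, with Ly6g, Mmp8, Csf3r and Camp at 0. Those of fibroblasts or stromal cells summed to 0.0571 CPM, against 1.81 to 2.70. The 8 dendritic cell markers summed to 121.7 CPM with LPS, against 70.7 to 77.1, with Clec10a at 0 in the second experiment. In unstimulated B cells they were lower there, at 42.5 CPM against 60.5 to 66.6. The 6 T cell markers summed to 5.65 CPM with LPS, against 3.06 to 3.43. B cell markers summed to 4980 CPM with LPS, against 4493 to 4613, and plasma cell markers to 259, against 234 to 250. The 6 erythroid or platelet markers summed to 56.1 CPM with LPS, against 3.32 to 4.81. Endothelial markers summed to 158 CPM against 154 to 167. The receptor gene Tlr4 had 50 counts with LPS against 64 to 109. Scaled to total counts it was at 2.86 CPM against 2.76 to 5.65, inside the range of the first experiment. Cd14 had 25 counts with LPS against 719 to 851. The part of these cells in the levels of the 4 genes was not tested.

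With DSF in the second experiment, Tnfsf15 fell from 28 counts with LPS to 0, at least 9.35-fold lower against a floor of 3 counts. That is the same direction as in the first experiment, in libraries that did not choose the genes, where 22.2% of genes were 2-fold or more lower. Edn1 went from 8 to 6 counts (ratio 0.749, counting interval 0.214 to 2.46) and Saa3 from 1 to 2, which cannot show a change at this depth. With ibrutinib, Tnfsf15 had 32 counts with LPS (ratio to LPS 0.894, 0.522 to 1.54) and Edn1 had 4 (ratio 0.391, 0.0862 to 1.46). With IL-4+anti-CD40 the counts were 3 for Edn1, 1 for Saa3 and 3 for Tnfsf15, with DSF 0, 0 and 3, and with ibrutinib 2, 0 and 7.

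The genes most like each of the 4 in pattern were found by Pearson's r of log2 CPM over the 20 libraries of the first experiment, among 14774 genes. The libraries share their groups, so r mostly follows the group means. Edn1 was most like Cd69, an early activation marker of lymphocytes (r = 0.978), followed by Myo1g, Fam129c, Traf4 and Tmem185b. Saa3 was most like Rilpl1 (r = 0.986), followed by Ifih1, Zcchc2, Isg20 and Ifit1, of which Ifih1, Isg20 and Ifit1 are interferon-stimulated genes. Tnfsf15 was most like Sbno2 (r = 0.974), followed by Gm43305, Pikfyve, Mb21d1 and Phip, and Ptx3 most like Gmppb (r = 0.945), followed by Ddx24, Crtc2, Phip and Vash1. Among the 4 genes, r ranged from 0.724 between Edn1 and Saa3 to 0.921 between Saa3 and Tnfsf15, and Edn1 was the least like the other 3.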

How the data were processed

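RNA-seq counts per gene of 20 libraries (first experiment) and 7 libraries (second experiment) were deposited by the authors as unnormalized read counts, together with FPKM that the authors calculated from them. Per the study's methods and the submitters' processing notes, poly-A mRNA reads were trimmed with Fastp, mapped to mm10 with HISAT2 2.0.5 and counted on genes with featureCounts 1.5.0-p3. The annotation release and the strand setting are not given in the sources used here, so reads of overlapping antisense genes cannot be told apart.

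Counts were TMM-normalized and compared with the quasi-likelihood test of edgeR 4.0.16 in R 4.3.3, fitted on the whole table (filterByExpr), with Benjamini-Hochberg adjustment over all genes tested and 0.05 as threshold. Fits held only the groups compared. Where groups are said not to overlap, the share of all genes so separated was not counted. CPM values in the text for the 4 genes are TMM-normalized, whereas marker sums use total counts. Alternatives were DESeq2 1.42.0, scaling by total counts or by size factors from DESeq2, keeping any count, all 20 libraries in 1 fit, a replicate block and leaving out each library. Fits of the libraries numbered 1 and 2 or 3 and 4 alone were chosen after seeing the data. The second experiment was described by log2 ratios (prior count 2) and exact 95% counting intervals, without a test. The test was checked on simulated data for DSF in LPS. The floor of a 0 was 3 counts per library.

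The 4 genes and the gene lists were chosen with earlier results of these data known. Other genes were named by a rule: the next genes outside the choice, the 5 most alike per gene by Pearson's r, and at most 3 per list and comparison with the largest absolute log2 fold change past the threshold, beside list members that are low or at 0. Same-numbered libraries were not shown to be paired.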

Additional observations from a re-analysis of the deposited data

Results flagged for a closer look

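For Edn1 the DSF effect differed between LPS and IL-4+anti-CD40 by -1.44 on the log2 scale (adjusted p = 0.0106, edgeR's quasi-likelihood test). Every library with LPS and DSF was lower in Edn1 than every LPS library, with no such separation with IL-4+anti-CD40. The latter libraries were split by number. In those numbered 1 and 2, Edn1 was at 4.38 and 4.89 CPM with DSF against 3.18 and 3.81 without. In those numbered 3 and 4 it was at 9.41 and 10.6 against 6.85 and 8.89, so DSF lay above vehicle within both pairs. Without a block in the fit, that rise did not pass the threshold. In the test of the difference between the DSF effects, 6.96% of 15130 genes were called lower. The share of all genes separated by library was not counted. For Saa3 the difference was -2.18 (adjusted p = 0.0366), and it rested on 10 counts with IL-4+anti-CD40 and 18 with DSF added. The LPS libraries that chose the genes enter both tests.

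In 3 of 19 groups of 4 libraries, 1 library stood apart from the others for one of the 4 genes. Chance marks about 1 in 20 groups of continuous values, a rate that does not hold for counts of mostly 0. Edn1 in LPS replicate 3 was at 27.4 CPM against 23.6 to 24.2 in the others, a gap of 0.839 of the group's range. Saa3 in unstimulated replicate 4 had 3 counts and Tnfsf15 in unstimulated replicate 1 had 2 counts where the other libraries had 0, so that the gap was 1.0 of the range in both, as it is for any single library above 0.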

How the results depend on the processing

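Of 352 values of the 4 genes recomputed under alternatives, 318 kept their direction and their side of the threshold. The direction reversed for Ptx3 in the difference between the DSF effects, a value near 0 that never passed the threshold in the fits without 1 library (-0.30 to 0.59) or in 1 fit of all 20 libraries (-0.0018), and that was -1.47 in the libraries numbered 3 and 4. With all 20 libraries in 1 fit, calls were lost for Ptx3 with DSF in LPS (-1.08, adjusted p = 0.0665), Edn1 between the stimuli with DSF (0.61, adjusted p = 0.107) and the Saa3 difference (-2.26, adjusted p = 0.101). The Edn1 call between the stimuli with DSF was also lost with DESeq2 (0.64) and total counts (0.50), and in the libraries numbered 3 and 4 (0.20). Without 1 library, the log2 fold change ranged from -1.29 to -0.77 for Ptx3 with DSF in LPS, from 0.44 to 0.85 for Edn1 between the stimuli with DSF, and from -3.003 to -1.78 for the Saa3 difference. In the libraries numbered 1 and 2, Ptx3 with DSF in LPS was -0.20, and in those numbered 3 and 4 the Saa3 difference was -1.47. The cause of these changes was not tested.

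The replicate number as a block gave a log2 fold change of 0.38 for Edn1 with DSF in IL-4+anti-CD40 and brought it past the threshold (adjusted p = 0.0221), and the Saa3 difference lost its call at -2.18 (adjusted p = 0.0503). The block changed no other call of the 4 genes. In no comparison were all 4 correlations of same-numbered libraries over 0.1, and for DSF in IL-4+anti-CD40 they were 0.193, -0.030, -0.021 and 0.169, with 2 of 4 libraries closest to their own number.

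Numbers of genes past the threshold stayed within 1.5 times in 208 of 212 values. Total counts gave 4712 lower genes for LPS against IL-4+anti-CD40, 5316 lower for the same with DSF and 3151 higher for LPS with DSF against unstimulated, and 1 fit of all 20 libraries gave 205 higher genes for the difference between the DSF effects. Beside the first of these stood 2428 higher genes, against 3145 higher and 2439 lower with TMM, beside the second 2137 higher (3128 and 3349 with TMM) and beside the third 7453 lower (5031 and 5464 with TMM). For DSF in IL-4+anti-CD40, IL-4+anti-CD40 against unstimulated and the difference between the DSF effects, total counts gave 3262 higher and 5832 lower, 3454 and 5574, and 826 and 1423, against 4301 and 4514, 4389 and 4633, and 1199 and 1053 with TMM. All 36 recomputed values of the second experiment stayed within their counting interval. Many of these intervals are wide, such as 0.104 to 118 for the ratio of Saa3 with DSF in LPS, so values from the same counts could hardly leave them. By FPKM, 3, 1, 4 and 3 of the 5 most alike genes of Edn1, Saa3, Ptx3 and Tnfsf15 were again among the first 5. Counts of higher or lower genes in the gene lists were less stable. Of 672 recomputed list counts, 583 stayed within 1.5 times and 89 did not.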
